A study of Rattus norvegicus with 8 samples.

Results

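The genes described here encode proteins that fold other proteins: the heat shock protein 70 (HSP70) family members Hspa1a, Hspa5 and Hspa8, the HSP70-related Hsph1, the J-domain protein Dnajb5, the heat shock protein 90 gene Hsp90ab1, and the mitochondrial chaperonin pair Hspd1 and Hspe1. Members were all probe sets whose only gene symbol in the platform annotation was one of these 8 symbols. Of 8740 probe sets, 15 met that rule, and they measured 7 of the 4736 genes that had a probe set with 1 symbol. Hspa8 had none, since both of its probe sets also carry the symbol Haus8l2. Of the 15, 14 passed the filter on low signal and were tested. The exception, the Hspa5 probe set S63521_r_at, read between 0.9 and 7.2 on the 8 arrays.

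The tissue was the soleus of female rats, a hindlimb muscle of mostly slow fibres that bears weight in standing, with 1 array per pool of RNA from 8 to 10 rats. Walked rats (2 pools) spent 12 h with the hindlimbs unloaded and then walked for 2 h in all, in 30 min bouts that alternated with 30 min in the cage over 4 h. Unloaded rats (3 pools) had the 12 h off the hindlimbs alone, and control rats (3 pools) had 12 h of ordinary cage activity. No source used here gives strain or age. Walking, standing again in the cage and the added hours came together in the walked rats and cannot be told apart. The spread behind each p-value is that among pools of RNA, and the spread among single rats was not measured.

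HSP70 proteins bind stretches of unfolded polypeptide in a cycle driven by ATP. J-domain proteins deliver the substrate and start the cycle, and HSP110 proteins such as Hsph1 exchange the spent nucleotide. HSP90 proteins finish the folding of kinases and receptors, and in mitochondria Hspd1 forms a barrel that Hspe1 closes as a lid. Heat, contraction and misfolded protein raise many of these genes through heat shock factor 1, which binds alternating GAA and TTC units, whereas Hspa5 answers to unfolded protein in the endoplasmic reticulum. Soleus is known for a high content of inducible HSP70 compared with fast muscle.

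The promoters in RefSeq (rat assembly GRCr8, 250 bases before to 50 after each gene's start) were searched for these letters on both strands. The 8-base units GAANNTTC and TTCNNGAA, which may overlap each other, occurred in 4 of the 8 promoters (Hspa8, Hsph1, Hspd1 and Hspe1), against 15.9% of all 33469 promoters of that length. Hspd1 and Hspe1 are neighbouring genes read in opposite directions from 1 stretch of DNA, so their promoters are not separate in that count. A single run of 18 bases made of 3 overlapping units lies in both promoters, 71 to 42 bases before the Hspe1 start and 248 to 219 bases before that of Hspd1 with its flanks. It is shown on each gene's strand (chr9:64084256-64084285), with the run in capitals.
Hspe1: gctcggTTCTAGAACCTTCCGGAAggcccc
Hspd1: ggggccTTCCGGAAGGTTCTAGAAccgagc
Upstream of Hsph1 (chr12:10427118-10427367, plus strand), a lone unit lies 105 to 98 bases before the start, and 2 overlapping units lie 36 to 24 bases before it, all in capitals.
Hsph1: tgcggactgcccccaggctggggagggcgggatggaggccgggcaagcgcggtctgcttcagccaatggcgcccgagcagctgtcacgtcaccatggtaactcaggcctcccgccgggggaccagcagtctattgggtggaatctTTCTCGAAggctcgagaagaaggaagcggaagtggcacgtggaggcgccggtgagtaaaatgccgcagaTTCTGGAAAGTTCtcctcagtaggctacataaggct
Upstream of Hspa5 (chr3:38452766-38453015, plus strand), the letters CCAAT and CCACG stand 9 bases apart, the spacing of the endoplasmic reticulum stress element, 43 to 25 bases before the start. That arrangement, in capitals, occurs in 22 of the 33469 promoters (0.0657%).
Hspa5: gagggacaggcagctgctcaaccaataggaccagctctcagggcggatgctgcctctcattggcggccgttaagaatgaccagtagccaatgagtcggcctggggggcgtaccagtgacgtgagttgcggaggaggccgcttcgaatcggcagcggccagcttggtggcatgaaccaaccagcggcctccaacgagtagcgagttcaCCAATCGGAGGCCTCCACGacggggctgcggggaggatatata
The searched 8-base units were not found in the windows of Hspa1a, Hspa5, Hsp90ab1 and Dnajb5. The Hspa1a window was placed at the RefSeq start, which was not checked against the start used in muscle and may lie away from it. No unit in that window therefore does not show that the Hspa1a promoter lacks one. The promoter of its copy Hspa1b was not analysed here. A match is a description of letters, not of binding, and whether the matches bear on the changes below was not tested.

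Values below are signals, scaled to a common level, and a log2 fold change carries its standard error from limma. The verbs rose and fell are kept for probe sets with an adjusted p (Benjamini-Hochberg over 5244 tested probe sets) under 0.05, which are also named as called. After unloading, 3 of the 14 member probe sets fell (Hspa1a, Hspa5 and Dnajb5), against 3.32% of all tested probe sets, and 1 rose (Hspe1), against 3.99%. After walking, 6 of 14 rose relative to unloaded muscle (1 of Hspa1a, 2 of Hspa5, 2 of Hsph1 and 1 of Dnajb5), against 2.73% of all. Relative to control, 7 of 14 rose in walked muscle, in 6 genes, against 4.46%, and no member probe set fell in either walked comparison. The median log2 fold change of the 14 was -0.27 in unloaded against control, where all tested probe sets had -0.08. Relative to unloaded muscle the walked median was 0.47, with -0.05 over all, and relative to control it was 0.65, with -0.11 over all. Since all 3 comparisons draw on the same 8 arrays, they are not independent of each other. The members were chosen with earlier results of these data known, so shares above those of all probe sets, here and below, are no test of the group.

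**Figure D1:**
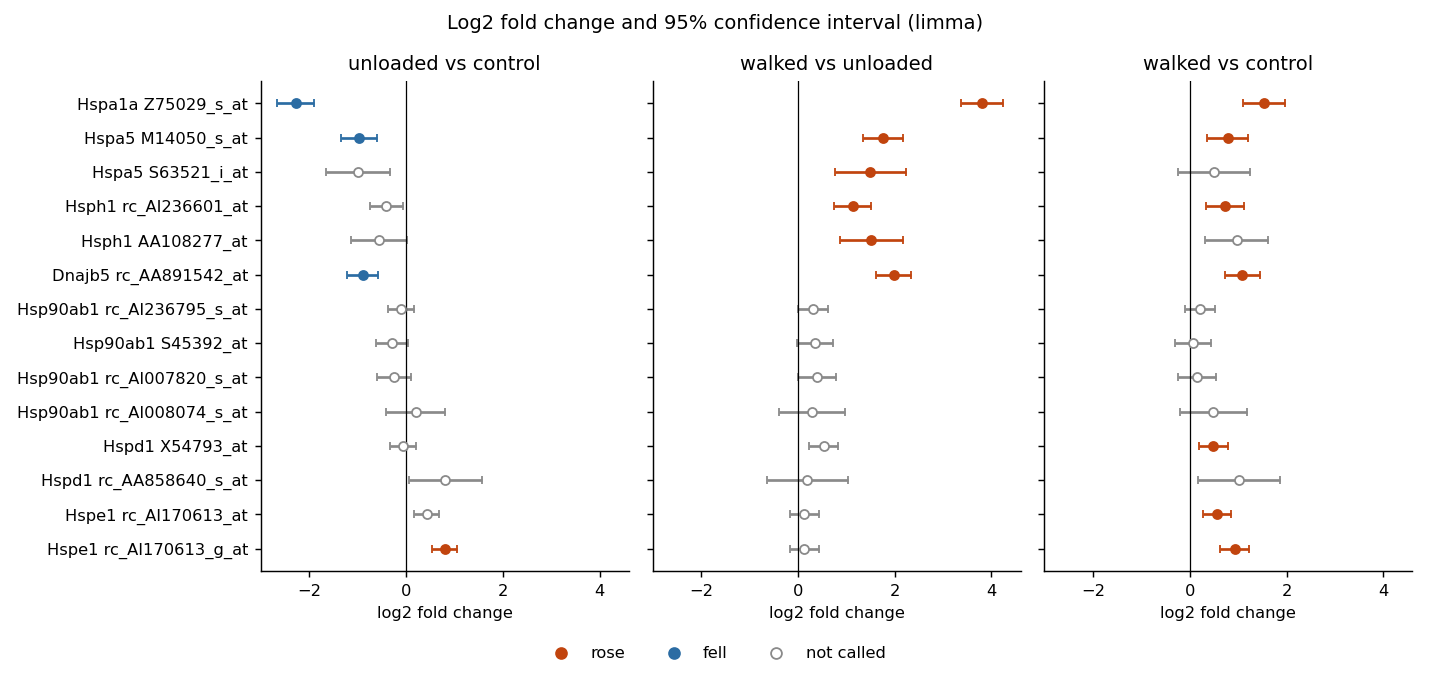
Log2 fold change (horizontal axis) of the 14 tested member probe sets in the 3 comparisons, with 95% confidence intervals from limma and filled points for those called. Hspa1a had the widest swing, at -2.27, 3.81 and 1.54, while the 4 Hsp90ab1 probe sets were called in no comparison.

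Hspa1a, the stress-inducible cytosolic HSP70, had signals of 2687 and 3121 in the walked pools. It had 215, 162 and 253 in the unloaded pools and 886, 1142 and 981 in the control pools. The 3 groups did not overlap on any array, with walked muscle highest and unloaded muscle lowest. The walked mean was 2904 ± 307 (SD, n = 2). Walked muscle was 13.99-fold above the unloaded level, as a ratio of geometric mean signals (log2 fold change 3.81 ± 0.19, limma adjusted p = 6.90e-07). That rise ranked 10 among 5244 probe sets. Unloaded muscle was at 0.207 of the control level (-2.27 ± 0.17, limma adjusted p = 2.29e-05), which ranked 7 among the falls. Walked muscle stood 2.90-fold above control (1.54 ± 0.19, limma adjusted p = 0.00107). Each of these 3 calls held in all 17 alternative fits.

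The rat genome holds a near-identical neighbouring copy, Hspa1b, so the Hspa1a signal cannot be given to 1 of the copies. Another 4 probe sets are annotated to both Hspa1b and Hspa1a and therefore fall outside the rule. All 4 were called in each comparison, with log2 fold changes between 2.19 and 2.38 for walked over control. On 3 of them the changes lay between -2.48 and -1.75 for unloaded over control and between 3.94 and 4.86 for walked over unloaded. The fourth, AA848563_s_at, read 11.1 to 14.6 in unloaded pools, under the 25.8 used as the filter on mean signal, so its fitted differences against that group (-4.62 and 6.99) depend on signals near background. Their walked signals spanned 1381 to 4538, their unloaded signals 11.1 to 199 and their control signals 291 to 902.

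Hspa8 is the constitutive cytosolic HSP70 that carries most routine folding. The 2 probe sets annotated to both Haus8l2 and Hspa8 had signals of 4442 to 4962 in walked, 2401 to 3404 in unloaded and 3179 to 3553 in control pools. In walked against unloaded muscle both were called, at 0.76 and 0.78. In unloaded against control they had -0.32 and -0.24 and in walked against control 0.44 and 0.54, and neither was called there. Their signal cannot be given to 1 of the 2 genes.

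Hspa5 (BiP), the HSP70 of the endoplasmic reticulum, had signals of 658 and 673 in walked pools on its probe set M14050_s_at. The same probe set had 187, 169 and 242 in unloaded pools and 440.2, 406 and 326 in control pools. As with Hspa1a, no array of one group reached into another. The walked mean was 666 ± 10.8 (SD, n = 2), the unloaded mean 199.6 ± 38.0 (n = 3) and the control mean 390.6 ± 58.9 (n = 3). Hspa5 rose in walked against unloaded (1.75 ± 0.19, limma adjusted p = 0.000191) and fell in unloaded against control (-0.97 ± 0.17, limma adjusted p = 0.00547), and both calls held in all 17 alternatives. It also rose in walked against control (0.78 ± 0.19, limma adjusted p = 0.0306), a call that was lost without control pool 2 or 3 or walked pool 1 or 2, with adjusted p of 0.0592, 0.0657, 0.125 and 0.164, and with no filter (0.0910) or no mean-variance trend (0.0806).

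A second Hspa5 probe set, S63521_i_at, was dimmer and followed the same order. It read 147 and 148 in walked pools, 80.6, 36.5 and 48.4 in unloaded pools and 136, 113 and 73.4 in control pools. Unloaded pool 1 lay above control pool 3, so unloaded and control overlapped. It rose in walked against unloaded (1.5 ± 0.34, limma adjusted p = 0.0301), and had -0.995 ± 0.30 in unloaded against control (limma adjusted p = 0.0737). The rise was lost without unloaded pool 2 or 3 or walked pool 1 or 2 (adjusted p = 0.0773, 0.0883, 0.164 and 0.169), with no filter (0.151) and with no trend (0.0815). The unloaded difference passed without control pool 3 (-1.25, 0.0318) or unloaded pool 1 (-1.31, 0.0267).

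**Figure D2:**
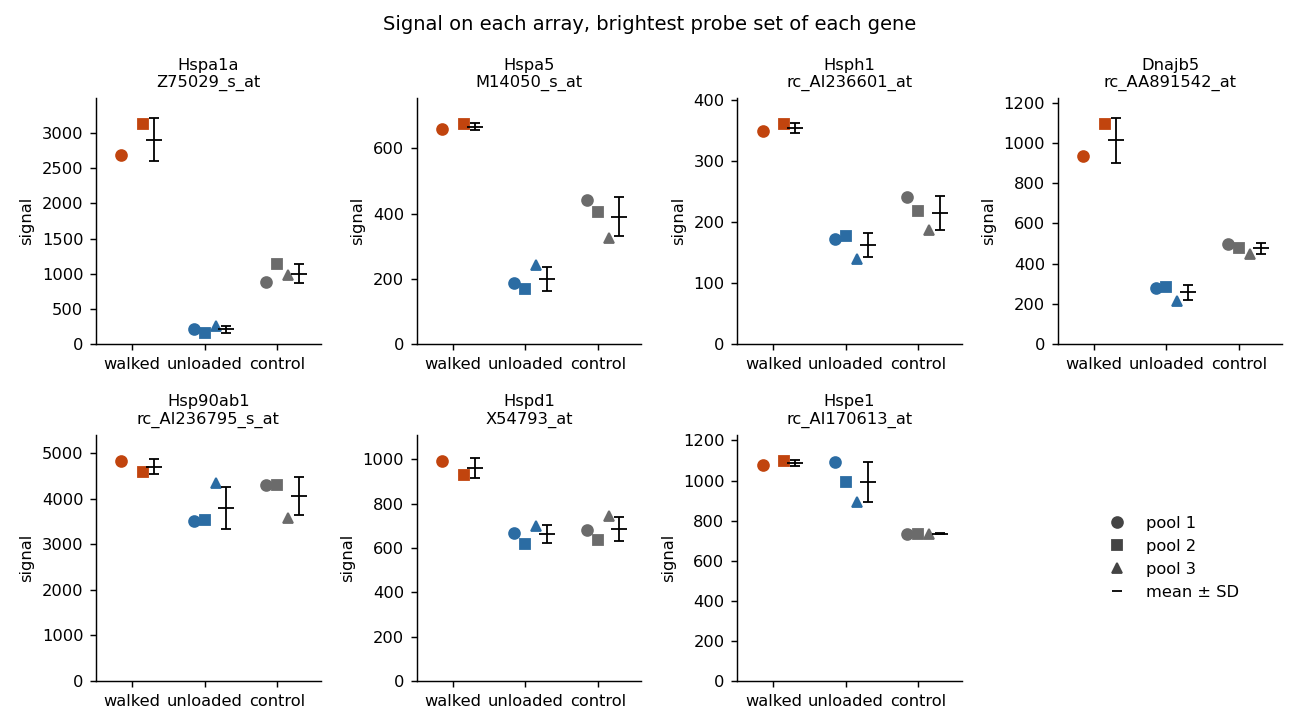
Signal (linear vertical axis from 0) on each of the 8 arrays for the brightest probe set of each gene, with groups along the horizontal axis, pools by symbol, and mean ± SD beside the points. Hspa1a, Hspa5, Hsph1 and Dnajb5 run walked above control above unloaded with no overlap, whereas for Hspe1 the control pools, between 734 and 736, lie below both other groups.

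Hsph1 (HSP105), the nucleotide exchange factor of HSP70, had signals of 349.6 and 361 in walked pools on its probe set rc_AI236601_at. Unloaded pools had 172, 177 and 139, and control pools 241, 218.5 and 187. Walked pools stood above all others, and the unloaded pools lay just under the lowest control. Hsph1 rose in walked against unloaded (1.13 ± 0.18, limma adjusted p = 0.00291, held in all 17 alternatives) and in walked against control (0.73 ± 0.18, limma adjusted p = 0.0297). The rise over control was lost without control pool 2 or 3 or walked pool 1 or 2 (adjusted p = 0.0650, 0.0657, 0.118 and 0.164), with no filter (0.0611) and with no trend (0.0692). Unloaded against control gave -0.41 ± 0.16 (limma adjusted p = 0.157), which was not called.

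On the dimmer Hsph1 probe set AA108277_at, walked pools had 89.1 and 86.0, unloaded pools 31.3, 30.2 and 30.0, and control pools 62.2, 41.0 and 35.0. The 3 groups again did not overlap. It rose in walked against unloaded (1.52 ± 0.29, limma adjusted p = 0.0125), a call lost with 1 walked pool left out (adjusted p = 0.108 without pool 1 and 0.106 without pool 2). Walked against control had 0.97 ± 0.29 (limma adjusted p = 0.0631), which passed without control pool 1 (1.21, 0.0382) and after quantile normalization (1.04, 0.0458).

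Dnajb5 is a J-domain partner of HSP70 expressed in muscle. Its only probe set had 935 and 1093 in walked, 277, 283 and 214 in unloaded and 500.1, 480.2 and 449 in control pools. The groups did not overlap, and the order was again walked, then control, then unloaded. Dnajb5 rose 3.95-fold in walked against unloaded (1.98 ± 0.16, limma adjusted p = 2.68e-05), where it ranked 48 among the rises. It fell in unloaded against control (-0.89 ± 0.15, limma adjusted p = 0.00365) and rose in walked against control (1.09 ± 0.16, limma adjusted p = 0.00290). Of these calls, 1 was lost in 1 of 17 alternatives: walked against control without walked pool 2 (0.97, adjusted p = 0.0531).

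Hsp90ab1, the constitutive cytosolic HSP90, was measured by 4 probe sets, and limma called 0 of them in any comparison. At an unadjusted p under 0.05 there were 2 of the 4 in walked against unloaded, rc_AI007820_s_at and rc_AI236795_s_at, with positive differences, and 0 in the other comparisons. The brightest, rc_AI236795_s_at, had 4834 and 4592 in walked, 3515, 3540.3 and 4340.2 in unloaded and 4300.4, 4314 and 3585 in control pools. Walked pools were above every other array there, while unloaded and control pools overlapped. Its difference was 0.32 in walked against unloaded (95% interval 0.01 to 0.63, limma adjusted p = 0.276) and 0.22 in walked against control (-0.09 to 0.53). The other 3 probe sets had 0.29 to 0.40 for walked over unloaded and 0.06 to 0.49 for walked over control.

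Control pool 3 had the lowest control signal on all 4 Hsp90ab1 probe sets, for example 667 on rc_AI008074_s_at, against 1651 and 1467 in the other controls. In unloaded against control the 4 probe sets had -0.29, -0.25, -0.10 and 0.20. Without control pool 3, S45392_at passed the threshold as lower in unloaded muscle (-0.46, limma adjusted p = 0.0441) and rc_AI008074_s_at turned to -0.21. Their 95% intervals in unloaded against control ran from -0.62 at the lowest to 0.81 at the highest, so an uncalled Hsp90ab1 is not shown to be unchanged.

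**Figure D3:**
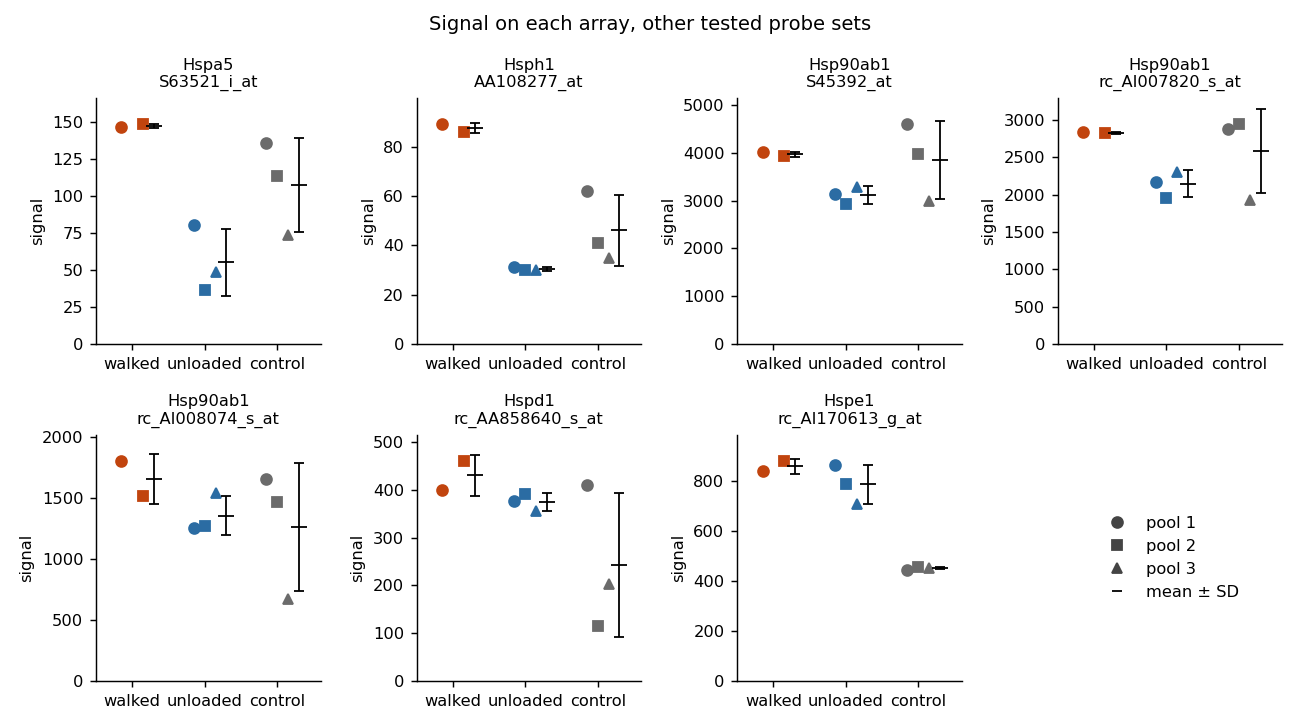
Signal (linear vertical axis from 0) on each of the 8 arrays for the other 7 tested probe sets, with groups along the horizontal axis, pools by symbol, and mean ± SD beside the points. The Hspe1 controls, between 445 and 454, lie below both other groups, and the Hspd1 probe set rc_AA858640_s_at spreads from 116 to 409.9 among controls.

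Of the mitochondrial chaperonin pair, Hspe1 was the only described gene called higher after unloading. As the lid of the barrel, it had signals of 837 and 878 in walked, 863, 786 and 705 in unloaded and 445, 454 and 452 in control pools on probe set rc_AI170613_g_at. Both walked and unloaded pools lay above all controls, and they overlapped each other. Hspe1 rose in unloaded against control (0.80 ± 0.12, limma adjusted p = 0.00254) and in walked against control (0.93 ± 0.14, limma adjusted p = 0.00252), and both calls held in all 17 alternatives. Between walked and unloaded the difference was 0.13 (95% interval -0.17 to 0.43, limma adjusted p = 0.688).

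The companion probe set rc_AI170613_at was made from the same sequence tag and is no independent measure. It read 1079 and 1097 in walked, 1092, 994 and 891 in unloaded and 734, 736 and 735 in control pools, in the same arrangement. It rose in walked against control (0.57 ± 0.13, limma adjusted p = 0.0262), and lost that call without control pool 1 or 2 or walked pool 1 or 2 (adjusted p = 0.0537, 0.0656, 0.114 and 0.148), and with no trend (0.0806). Unloaded against control had 0.43 ± 0.12 (limma adjusted p = 0.0522), and passed without unloaded pool 3 (0.50, 0.0326), after quantile normalization (0.0426) and with the filter at the 60th percentile (0.0441).

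Hspd1 (HSP60), the barrel, had signals of 992 and 929 in walked, 669, 617 and 699.7 in unloaded and 679, 636 and 745 in control pools on probe set X54793_at. Walked pools were above all others, and unloaded and control pools overlapped. The difference was 0.49 ± 0.14 in walked against control (limma adjusted p = 0.0480, called), 0.54 ± 0.14 in walked against unloaded (limma adjusted p = 0.0514, not called) and -0.05 ± 0.12 in unloaded against control (limma adjusted p = 0.854). Both walked values sit at the threshold. The call against control was lost when control pool 1 (adjusted p = 0.0927) or 2 (0.130) was left out, likewise unloaded pool 1 (0.0690) or 2 (0.0554) and walked pool 1 (0.215) or 2 (0.170), and with no filter (0.0526), no trend (0.114) or only the pair of groups fitted (0.0691). Walked against unloaded passed without control pool 3 (adjusted p = 0.0356), after quantile normalization (0.0424), with no filter (0.0465) and with the filter at the 60th percentile (0.0439).

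The other Hspd1 probe set, rc_AA858640_s_at, did not give the same picture. It read 400.1 and 460.5 in walked, 377, 391 and 355 in unloaded and 409.9, 116 and 204 in control pools, so control pool 1 lay apart from the other controls. It was called in no comparison, at 0.20 in walked against unloaded, 0.81 in unloaded against control and 1.01 in walked against control. Without control pool 1 the last pair became 1.29 (limma adjusted p = 0.00878) and 1.48 (limma adjusted p = 0.00742). The unloaded and control levels of Hspd1 thus differed on 1 probe set only when an array was left out, and not on the other.

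Set side by side, the members' group means took only 2 orders. On 10 of the 14 probe sets the order was walked, control, unloaded, an order found in 14.0% of all tested probe sets. These were all those of Hspa1a, Hspa5, Hsph1 and Dnajb5, 3 of 4 for Hsp90ab1, and 1 of 2 for Hspd1. On 4 it was walked, unloaded, control (12.5% of all), namely both of Hspe1 and 1 each of Hspd1 and Hsp90ab1. The arrays of the groups did not overlap on 7 of 14 probe sets for unloaded and control (26.4% of all tested), on 11 for walked and unloaded (35.3%) and on 10 for walked and control (43.0%).

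Likeness was measured by Pearson correlation of log2 signal over the 8 arrays. Between members, the brightest probe sets ranged from -0.027 (Hspa1a with Hspe1) to 0.978 (Hspa1a with Hspa5, and Dnajb5 with Hsph1). All members were left out of the rankings that follow. The genes most like Hspa1a were then the glycolytic enzyme Pgam1 (0.982), the glucose transporter Slc2a1 (0.970) and Pmepa1 (0.969). Outside the members, Hspa5 was most like Pgam1 (0.972), Pmepa1 (0.969) and the eIF2 phosphatase subunit Ppp1r15a (0.963). The nearest to Dnajb5 were the orphan nuclear receptor Nr4a1 (0.995), Slc2a1 (0.982) and Ywhaz (0.979), and those nearest to Hsph1 were the cAMP-responsive regulator Crem (0.980), Ugdh (0.971) and Ywhaz (0.970). For Hspd1 they were Cnn1 (0.949), the mitochondrial adenine nucleotide carrier Slc25a5 (0.943) and Hmox1 (0.927). For Hspe1 they were Hnrnpa3 (0.988), Ptp4a1 (0.987) and Pls3 (0.986). All 8 points share 3 groups, so these values describe likeness of profile on the same arrays.

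The rest of the folding machinery was read from lists with 1 probe set per gene, the brightest. Over all 3154 genes limma called 6.21% between unloaded and control muscle, 4.09% between walked and unloaded and 8.37% between walked and control. An unadjusted p under 0.05 was reached by 19.7%, 16.9% and 23.1% of genes in those comparisons. Several lists share genes, such as Hsp90b1, Hyou1, Dnajb9 and Hspa9.

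On the brightest probe set limma called 0 of 7 other HSP70, HSP110 and HSP90 genes in each comparison, and 3, 2 and 1 of them had an unadjusted p under 0.05. Their median was -0.31 for unloaded over control, 0.05 for walked over unloaded and 0.19 for walked over control. Probe sets of 1 gene disagreed for Hsp90b1, the HSP90 of the endoplasmic reticulum. Its brightest, S69315_at, had 0.42 for walked over unloaded (limma adjusted p = 0.199), whereas S69316_s_at rose (0.94, limma adjusted p = 0.0083) and so did AA685903_at (0.98, limma adjusted p = 0.0276). After unloading S69316_s_at fell relative to control (-0.61, limma adjusted p = 0.0335), while S69315_at had -0.22 and AA685903_at had -0.66 (limma adjusted p = 0.0623). For walked over unloaded Hyou1, an HSP110 relative of the endoplasmic reticulum, had 1.24 (limma adjusted p = 0.159), and the mitochondrial HSP70 Hspa9 had -0.04 (limma adjusted p = 0.952). Of 2 tested subunits of the cytosolic chaperonin, Cct3 and Cct6a, limma called 0, with 0.32 and 0.21 for walked over unloaded, and 1 had an unadjusted p under 0.05, between unloaded and control.

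Among 9 other J-domain genes, 1 rose in walked against unloaded: Dnaja1, a cytosolic HSP70 partner, with a mean of 535 ± 128 in walked (SD, n = 2) and 297 ± 17.3 in unloaded pools (n = 3; 0.83, limma adjusted p = 0.0270). A dimmer Dnaja1 probe set, rc_AA800551_at, had 0.55 in walked against unloaded (limma adjusted p = 0.308) and was not called. Another J-domain gene, Dnajb9, which serves Hspa5, rose in walked against control, with 160 ± 5.35 in walked and 84.2 ± 8.62 in control pools (0.93, limma adjusted p = 0.0216). Dnajb1 had 0.70 in walked against unloaded (limma adjusted p = 0.0516) and 0.80 on a dimmer probe set (limma adjusted p = 0.0707), neither called. For walked over unloaded 7 of the 9 genes lay above 0 and 2 below. Limma called 0 of the 9 in unloaded against control. An unadjusted p under 0.05 was reached by 2 of them there and by 3 in each walked comparison. On the brightest probe set limma called 0 of 10 co-chaperones in each comparison, with 1 at an unadjusted p under 0.05 between unloaded and control, 1 between walked and unloaded and 2 between walked and control. A dimmer probe set of Cdc37, which brings kinases to HSP90, fell in unloaded against control (D26564_at, -0.83, limma adjusted p = 0.0119). The HSP70 to HSP90 adaptor Stip1 had 1.03 in walked against unloaded (limma adjusted p = 0.0732). Hsf1, the only tested heat shock factor gene, had 0.11 in walked against unloaded (limma adjusted p = 0.812) and -0.08 in unloaded against control (limma adjusted p = 0.827). Its dimmer probe set rc_AI172097_at had 0.38 and -0.54 in those comparisons (limma adjusted p = 0.555 and 0.248), neither called. For these groups a missed threshold does not show an unchanged gene.

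Of 8 small heat shock proteins and other stress chaperones, 3 fell in unloaded against control and 3 rose in walked against unloaded. The collagen chaperone Serpinh1 and the small heat shock protein Hspb1 did both, at -1.96 and 1.81 and at -0.87 and 1.37. Probe sets disagreed for Hspb1, whose calls came from its brightest alone, rc_AA998683_g_at. Its probe sets M86389cds_s_at, rc_AA998683_at and rc_AI176658_s_at had 0.08, -0.38 and 0.44 for unloaded over control. For walked over unloaded they had 0.42, 0.69 and 0.08, and none was called. Hspb2 fell (-0.79), and the heme-degrading enzyme Hmox1 rose in walked against unloaded (1.88) and against control (1.94). Of 13 endoplasmic reticulum folding and stress genes, 10 lay below 0 for unloaded over control, where 58.9% of all genes did, with 0 called by limma on the brightest probe set and 7 at an unadjusted p under 0.05. For walked over unloaded 10 lay above 0, against 44.1% of all genes. For walked over control 6 lay above 0 and 7 below, with a median of -0.015. On the brightest probe sets the stress transcription factor Ddit3 rose in walked against unloaded (1.26) and Dnajb9 in walked against control. Dimmer probe sets added Hsp90b1, described above, the chaperone Calr, which fell in unloaded against control (X53363cds_s_at, -0.83, limma adjusted p = 0.0193), and the segregase Vcp, which fell in walked against control (rc_AI044341_s_at, -0.65, limma adjusted p = 0.0300). The brightest Calr probe set, D78308_at, had -0.46 in unloaded against control (limma adjusted p = 0.0645). Its companion D78308_g_at had -0.07 (limma adjusted p = 0.853), and neither was called. Of 8 genes of mitochondrial import and folding, limma called 0 in each comparison, and at an unadjusted p under 0.05 there was 1 for unloaded over control, 0 for walked over unloaded and 1 for walked over control. Their median was 0.11 for unloaded over control and 0.003 for walked over unloaded, where the brightest Hspe1 probe set had 0.43 and 0.14, neither called. For unloaded over control 4 of the 8 lay above 0 and 4 below, with Timm17a at 0.80 (limma adjusted p = 0.164).

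**Figure D4:**
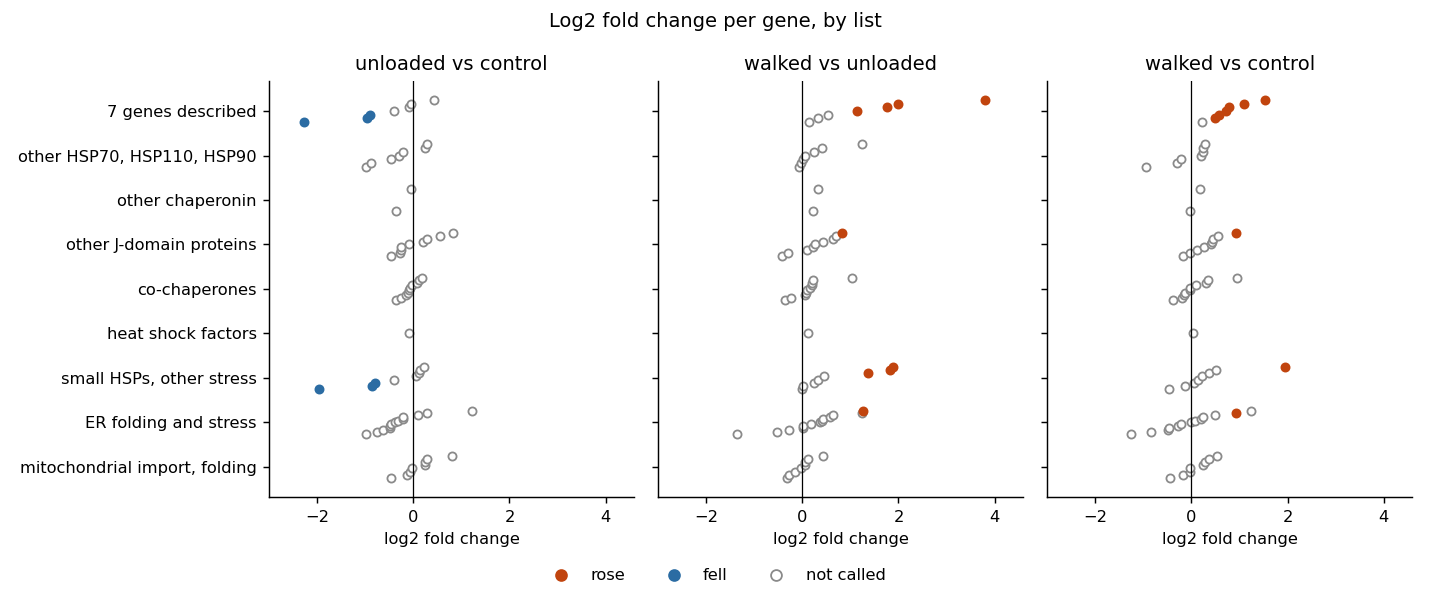
Log2 fold change (horizontal axis) of each gene, 1 probe set per gene, in the 7 described genes and the 8 lists, with filled points for called genes. Hspa1a is the far point of the top row in each of the first 2 panels, at -2.27 and 3.81, and dimmer probe sets of the same genes are not drawn.

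The 8 arrays had median signals between 37.1 and 42.4, and log2 signals correlated at 0.949 to 0.963 within groups and 0.913 to 0.945 between groups. On the first principal component control pool 3 lay at -29.95, farther out than control pools 1 and 2 (-14.25 and -16.3). It was the lowest control on 9 of 14 member probe sets (33.7% of all tested). The slow fibre markers Myh7 and Tnni1 had mean signals of 6217 and 4053. The 7 measured of 10 slow fibre markers summed to 28770 to 31550 in walked, 22790 to 30700 in unloaded and 21180 to 23290 in control pools. Of the 7, 3 rose in walked against control, and 1, Tpm3, fell in unloaded against control (-0.95). The 9 measured of 11 fast fibre markers summed to 12270 to 12680 in walked, 15170 to 17070 in unloaded and 11840 to 14410 in control pools, and 2 fell in walked against unloaded. The 9 measured of 11 leukocyte markers summed to 976 to 1085 in walked, 1255 to 1487 in unloaded and 1283 to 1291 in control pools, with 2 called in walked against control and 1 in each other comparison. Their called directions differed. Cd48 rose in unloaded against control (1.40), and RT1-Da fell in walked against unloaded (-0.85) and against control (-0.58). The 6 fibroblast markers summed to 6794 to 6876 in walked, 7367 to 11420 in unloaded and 6262 to 9047 in control pools, with 2 called in unloaded against control and 2 in walked against control. Calls in unloaded against control included 1 of 5 smooth muscle and 1 of 3 tested adipocyte markers, and in walked against unloaded 1 of 3 tested Schwann cell and nerve markers. No marker was at 0. The part of these shifts in the chaperone values was not tested, and in bulk RNA fewer cells of a type and less RNA per cell cannot be told apart.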

How the data were processed

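The authors deposited 1 linear intensity value per probe set and array, and per the submitters' processing notes the tool was MAS5. No source used here gives its version or scaling target. MAS5 subtracts a background estimate, so dim probe sets are noisy. Arrays were scaled to 1 trimmed mean (2% left out at each end, 148.6), values under the 10th percentile (4.10) were raised to it, and log2 was taken. Probe sets with a mean signal under the 40th percentile (25.8) were left out. Limma 3.58.1 (R 4.3.3) fitted the 8 arrays together, two-sided, with a mean-variance trend and 5 residual and 6 prior degrees of freedom. The code was tested on simulated data. An exact permutation test of a single gene cannot go below 0.1 here. Gene names come from the platform annotation (7006 probe sets with 1 symbol, 308 with several, 1426 unnamed). Lists used the probe set with the highest mean log2 signal, and named up to 4 called genes each by smallest p. For each called member the 3 genes nearest in correlation, with all members left out, are named. Members and lists were chosen with earlier results of these data known. Genes not called but named (Hyou1, Hspa9, Cct3, Cct6a, Dnajb1, Stip1, Hsf1, Timm17a), and calls on dimmer probe sets (Hsp90b1, Cdc37, Calr, Vcp), were chosen after their values were seen. So were the uncalled probe sets given for Hspb1, Dnaja1, Dnajb1, Hsf1 and Calr. Pool number was no block, since the labels do not say that a number is shared between groups. Same-numbered pools had correlations of deviations of -0.067 to 0.052 over 7 pairs of arrays. Those pairs are not separate checks, because the deviations of 2 walked pools from their own mean mirror each other.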

Additional observations from a re-analysis of the deposited data

How the results depend on the processing

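In unloaded against control 4 to 6 member probe sets were called in all alternatives, against 4, and in walked against unloaded 4 to 7, against 6. In walked against control the count of 7 fell to 4 with no filter on low signals, to 3 with no mean-variance trend, and lay between 2 and 7 with 1 array left out. With the pool number as a replicate block it was 3 (the 4 calls lost there, and with no trend, were Hspa5, Hsph1, Hspd1 and Hspe1 rc_AI170613_at, of which the last was kept with no filter). The block changed no other member call except Hspa5 S63521_i_at in unloaded against control (adjusted p = 0.0468), and the labels do not say that equal numbers share anything. Calls over all probe sets in that comparison were 476, and 216, 211 and 251 in the same 3 fits, and 105 to 503 with 1 array left out. In unloaded against control they were 383, and 228 with no filter, 243 with no trend and 230 to 404 with 1 array left out. In walked against unloaded they were 220, and 120 to 263 with 1 array left out. The values that changed sign were not called, and lay between -0.05 and 0.22 in the fit reported. In walked against control, Hsp90ab1 turned to -0.015 (rc_AI236795_s_at) and -0.092 (S45392_at) after quantile normalization and to -0.0035 (S45392_at) with the block. With 1 array left out, Hsp90ab1 ranged there from -0.041 to 0.26 (rc_AI007820_s_at) and from -0.11 to 0.20 (S45392_at). In unloaded against control the range was -0.21 to 0.45 for Hsp90ab1 rc_AI008074_s_at and -0.11 to 0.0092 for Hspd1 X54793_at. Each sign turned without control pool 3. The causes were not tested. The number of arrays limits the precision, and fits without 1 walked pool assume that the remaining pool varies like the other groups.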
